A study of Mus musculus with 335 samples.

Results

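Among 65 single cells sorted as HSC from the mouse aorta-gonad-mesonephros (AGM) region, 39 carried at least 5 counts of Gfi1 and were called Gfi1-positive, and 26 carried fewer and were called Gfi1-negative. The count was the rounded estimated read count of the cell, not scaled for its depth, so the sides were defined by Gfi1 itself and nothing about Gfi1 is a result of the split. The series holds 335 cells, each deposited as its own sample. All came from wild-type embryos at stage E11.5, were sorted singly into plates without treatment, and were profiled by Smart-seq2, a full-length single-cell RNA-sequencing method without molecular identifiers. Besides the 65 HSC cells (EPCR+CD45+, a gate for haematopoietic stem cells and progenitors) there were 93 Dorsal and 89 Ventral cells (Ngfr+Pdgfrb-, from the respective sides of the aorta) and 88 Mesenchymal cells (Pdgfrb+Ngfr-). The labels name no embryo or litter and the HSC cells made up 1 sequencing pool, so they count as 1 sample. Cells of 1 pool are not replicates, so differences are described by levels and by ranges over cells, with no significance test.

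GFI1 is a zinc-finger repressor of transcription. Its SNAG domain recruits the histone demethylase LSD1 (encoded by Kdm1a) with CoREST proteins, and histone deacetylases, to genes that carry its AATC-containing binding motif. In the embryonic aorta, GFI1 and its paralogue GFI1B act below RUNX1 and silence endothelial genes while haemogenic endothelium turns into blood cells. In later blood formation GFI1 restrains the cycling of stem cells, favours granulocytes over monocytes and takes part in lymphoid development, and GFI1B acts in erythroid cells and megakaryocytes. Both proteins repress their own genes and each other's.

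The 250 bases upstream of an annotated start of Gfi1 and of Gfi1b are shown because the pair bind the same motif and the split turns on one of them. The windows are RefSeq promoters on GRCm38.p6, both on the minus strand and written 5′ to 3′. Gfi1 spans chr5:107725806-107726055 and Gfi1b spans chr2:28621983-28622232. Capitals mark a match to AAATCA, or TGATTT on the other strand.
Gfi1: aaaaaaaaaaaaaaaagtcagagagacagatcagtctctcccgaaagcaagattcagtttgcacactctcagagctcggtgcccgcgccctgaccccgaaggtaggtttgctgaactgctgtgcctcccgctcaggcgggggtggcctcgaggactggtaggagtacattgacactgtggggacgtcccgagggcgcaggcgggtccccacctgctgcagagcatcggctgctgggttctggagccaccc
Gfi1b: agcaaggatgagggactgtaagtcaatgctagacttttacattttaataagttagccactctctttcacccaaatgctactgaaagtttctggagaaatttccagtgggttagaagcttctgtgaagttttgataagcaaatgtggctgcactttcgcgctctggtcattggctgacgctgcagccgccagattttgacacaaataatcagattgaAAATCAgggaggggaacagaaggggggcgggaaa
The Gfi1b window held 1 match, whose first base lies at position -34 from the start site, and the Gfi1 window held 0. Another annotated start of Gfi1, with its window at chr5:107724344-107724593, is not shown and also held 0. These 6 letters occurred in 12.4% of 32851 such windows, so a match alone says little. Among the compared genes with a window, 821 of 8685 (9.45%) held a match, against 10.7% of the genes at least 2-fold higher in Gfi1-positive cells and 11.9% of those at least 2-fold lower.

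The Gfi1-positive cells were sequenced more deeply. Their median total was 1092790 estimated counts (276471 to 4692494), against 834949 (326940 to 7093614) in Gfi1-negative cells, and their median number of detected genes was 7777 against 7215.5. At an equal depth of 430000 counts, which left 37 Gfi1-positive and 23 Gfi1-negative cells, the median number of genes with at least 1 count was 6973 against 6416. Thus the Gfi1-positive cells held more detected genes at matched depth too. The median share of mitochondrially encoded counts was 4.16% and 4.62%. Dock10, a guanine nucleotide exchange factor with very high counts throughout, took a median of 10.02% and 13.4%. The part of depth in the differences below was not tested, and ratios below are of summed counts unless equal weights are named, in which every cell counts the same.

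A few cells stood apart. HSC 23, with 0 Gfi1 counts, was the deepest cell and held 22.2% of the counts of the Gfi1-negative side. HSC 22 was the deepest Gfi1-positive cell, with 9.28% of its side. It held only 9 Gfi1 counts, or 1.94 counts per 1000000 (CPM), which is less than the 4.06 CPM of the highest Gfi1-negative cell, so a cutoff scaled for depth puts it on the other side. HSC 37 (1 Gfi1 count) and HSC 52 (24 Gfi1 counts) had the highest Mpo levels of their sides and held other granulocyte transcripts. HSC 37 also held mast cell transcripts. Results that rest on these 4 cells are given with and without them.

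**Figure D1:**
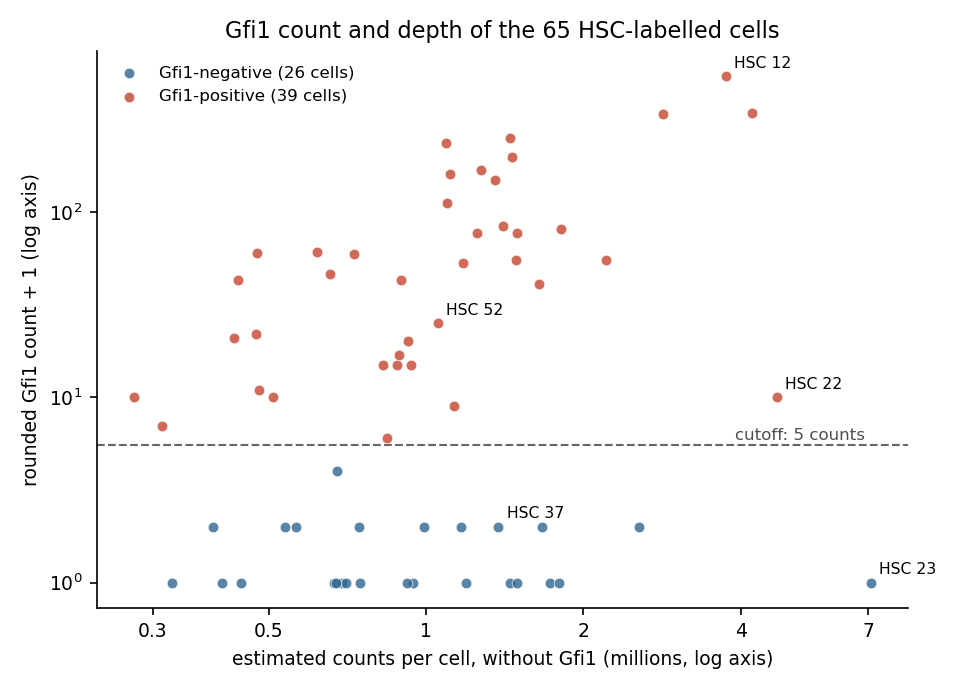
Rounded Gfi1 count plus 1 (log axis) against the estimated counts of the cell without Gfi1 (log axis, in units of 1000000) for the 65 HSC-labelled cells, red for Gfi1-positive and blue for Gfi1-negative, with the cutoff of 5 counts dashed. HSC 22 lies far to the right with 9 counts, and HSC 23 farther right with 0.

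Gfi1 itself was graded. It had 0 counts in 16 cells, 1 count in 9, 3 counts in 1 cell, 5 to 9 in 6, 10 to 49 in 13, 50 to 99 in 10, and at least 100 in 10. The cells nearest the cutoff were HSC 51 with 3 counts on the negative side and HSC 50 with 5, HSC 4 with 6 and HSC 63 with 8 on the positive side. In Gfi1-positive cells the level ran from 1.94 through a median of 47.1 to 215 CPM. The highest count was 540 in HSC 12. Of the 13 other cells that share an index with it 7 were Gfi1-positive, and of the 51 that share none 31 were. In the HSC pool 60% of cells were positive (95% limits 47.1% to 72%, exact Clopper-Pearson, which take the cells as independent draws). None of the 270 Dorsal, Ventral and Mesenchymal cells held a Gfi1 count, which allows a share of up to 1.11% by a floor of 3 cells and 1.36% by the exact limit. Their median total was 689695 counts, against 943772 in HSC cells.

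The paralogue Gfi1b (chromosome 2, 28609450 to 28621982, minus strand, GRCm38) had no steady direction between the sides. It was present with at least 5 counts in 11 of 39 Gfi1-positive and 5 of 26 Gfi1-negative cells. Its level ran from 0 to 114 CPM in Gfi1-positive and from 0 to 212 CPM in Gfi1-negative cells, with a median of 0 on both sides, so the sides overlapped over nearly the whole range. Summed over cells it stood at 17.9 CPM (95% Poisson limits 16.7 to 19.1) against 22.6 CPM (21 to 24.3), a log2 ratio of -0.32. All log2 ratios here are Gfi1-positive over Gfi1-negative on the CPM + 1 scale, computed with Gfi1 left out. Limits on levels and ratios cover the counting error of reads only, not the spread between cells. HSC 25 alone held 75.1% of the Gfi1b counts of the negative side, and without it the ratio was 1.41. HSC 25 held 1 Gfi1 count, and with a cutoff of 1 count, which puts it on the positive side, the ratio was 2.21. It was -1.35 with a cutoff of 5 Gfi1 CPM, which moves HSC 22, and it turned from negative to positive in 4 of 16 alternatives. Outside the HSC pool 1 Dorsal cell held at least 5 Gfi1b counts.

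Over all 11270 genes with at least 100 counts, 1860 (16.5%) stood at least 2-fold higher in Gfi1-positive cells and 1082 (9.6%) at least 2-fold lower. The median log2 ratio was 0.15. With every cell given the same weight the shares were 11.3% and 6.27%, and the median 0.09. Without HSC 22 and HSC 23 they were 13.2% and 8.51%. At least 2-fold in sums, with equal weights, at equal depth and also without the highest cell, 617 genes (5.47%) were higher and 211 (1.87%) lower. Each gene list below is read against these shares, except at other Gfi1 cutoffs, where the shares at that cutoff are given. The side of HSC 22 alone mattered: a cutoff of 5 Gfi1 CPM, which moves only this cell, gave 1906 higher (16.9%) and 1134 lower genes (10.1%), of which 1340 and 768 were among those above.

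The genes that led the Gfi1-positive side were headed by Prrg1, Glb1l, Nrp1, Gsta4 and Cers6, at log2 ratios of 4.29 to 3.82. The naming rule takes the largest ratios among genes present with at least 5 counts in at least 25% of the cells of the higher side. They also had to differ at least 2-fold in sums, with equal weights, at equal depth and without the highest cell. On this side 362 genes met the rule. Nrp1 (chromosome 8, 128358604 to 128503363, plus strand), a co-receptor for VEGF and semaphorins, ran from 0 through a median of 0.85 to 398 CPM in Gfi1-positive cells and from 0 through 0 to 79.8 CPM in Gfi1-negative cells. At equal depth 12 of 37 and 2 of 23 cells held at least 5 Nrp1 counts (32.4%, limits 18% to 49.8%, and 8.70%, limits 1.07% to 28%). Most cells on both sides thus had little or none, and a minority of Gfi1-positive cells carried the difference. Its log2 ratio was 4.01 in sums, 3.22 with equal weights and 3.14 without its highest cell, HSC 12.

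Gsta4, a glutathione transferase for products of lipid peroxidation, was more widespread. It ran from 0 through 5.64 to 227 CPM against 0 through 0 to 50.9 CPM, and 18 of 37 against 2 of 23 cells were positive at equal depth. Its log2 ratio was 3.96, and 3.41 without HSC 22, which held 38.6% of the counts. With a cutoff of 10 Gfi1 counts it stood at 0.21. Inpp4b, a phosphatase of phosphoinositides, had the highest level of the 15, with a median of 10.3 CPM against 2.18 CPM and a highest cell of 1684 against 128 CPM. Its ratio of 3.59 was 1.87 without HSC 12, which held 72.2% of its counts. Prrg1, a transmembrane Gla protein, stood at 4.29 (2.92 without HSC 12), and Cers6, a ceramide synthase, at 3.82 (3.30 without HSC 33).

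Cyp2j6, a cytochrome P450, was nearly absent from the Gfi1-negative cells: its highest Gfi1-negative cell held 2.78 CPM, its highest Gfi1-positive cell 112 CPM, and 11 of 37 against 0 of 23 cells were positive at equal depth. Its log2 ratio was 3.79 in sums and 4.05 with equal weights. Vangl1, a planar cell polarity protein, stood at 3.70, with 54.7% of its positive-side counts in HSC 1, and at 2.70 without that cell. Klhl42, a kelch-like adaptor, stood at 3.73, with 66% in HSC 1, and at 2.37 without it. Akr1c14, an aldo-keto reductase, stood at 3.69, with 59.1% in HSC 12, and at 2.57 without it and 2.15 with equal weights. Arfgap3, which acts on ARF1 at the Golgi, stood at 3.69 and at 3.45 without HSC 22. Trim71, an RNA-binding protein of early development, stood at 3.64, at 2.58 without HSC 12 and at 0.84 with a cutoff of 10 Gfi1 counts. The 4 others also had HSC 22 as their highest cell by count. Without it the ratio of Glb1l, related to beta-galactosidase, fell from 4.23 to 2.42, that of Tceal1, related to an elongation factor, from 3.71 to 2.46, that of the kinase gene Vrk2 from 3.48 to 2.54, and that of Polq, a DNA polymerase of end joining, from 3.81 to 3.11. With a cutoff of 10 Gfi1 counts, which puts HSC 22 and 5 other cells on the negative side, Glb1l stood at -1.80, Tceal1 at -1.21, Vrk2 at -0.43 and Polq at 0.06.

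**Figure D2:**
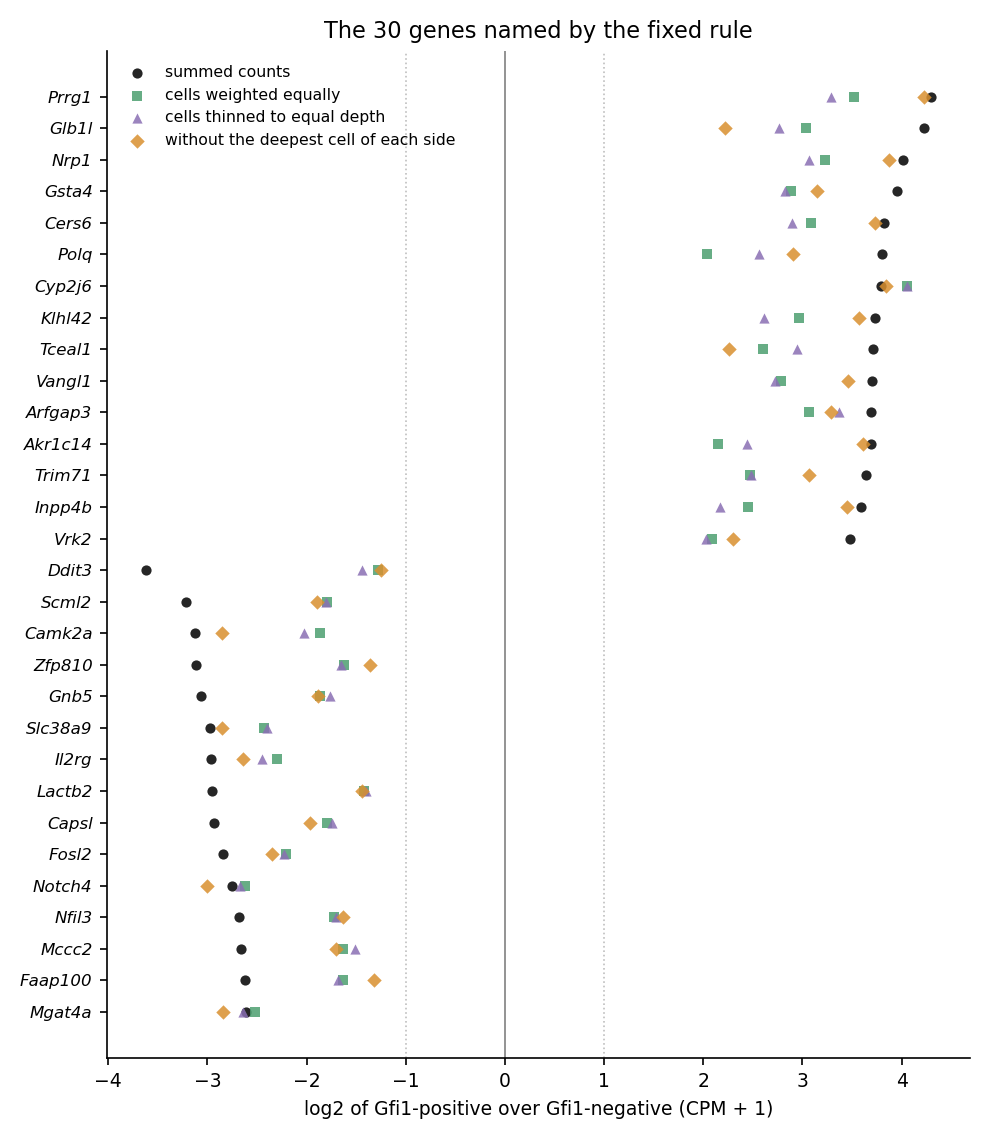
Log2 ratio of Gfi1-positive over Gfi1-negative (CPM + 1) of the 30 genes named by the rule, from summed counts (black circles), cells weighted equally (green squares), cells thinned to equal depth (purple triangles) and without the deepest cell of each side (orange diamonds); dotted lines mark 2-fold. Summed counts lie farther from 0 than the other estimates for most of the lower genes, such as Ddit3 at -3.62 against -1.25 without the deepest cells.

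Toward the Gfi1-negative side the rule was met by 109 genes, and the 15 named ran from Ddit3 at -3.62 to Mgat4a at -2.62. Il2rg (chromosome X, 101264378 to 101268255, minus strand), the common gamma chain of the interleukin receptors of lymphocytes, ran from 0 through 0 to 128 CPM in Gfi1-positive cells and from 0 through 6.99 to 351 CPM in Gfi1-negative cells. At equal depth 9 of 37 and 13 of 23 cells were positive (24.3%, limits 11.8% to 41.2%, and 56.5%, limits 34.5% to 76.8%). Both sides held cells at 0, and the 4 cells with the most Il2rg counts were Gfi1-negative. Its log2 ratio was -2.97 in sums, -2.30 with equal weights and -2.76 without HSC 23.

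Notch4, a receptor of endothelial cells, was found in fewer cells. It ran from 0 through 0 to 72.2 CPM in Gfi1-positive and from 0 through 0 to 319 CPM in Gfi1-negative cells, with 3 of 37 and 5 of 23 positive at equal depth. The ratio was -2.75 and -1.12 without HSC 48, which held 72.2% of the counts. Over all alternatives run its weakest value was -0.46. Fosl2, an AP-1 subunit, stood at -2.84 (-2.48 without HSC 23) and Nfil3, a bZIP factor of lymphoid and innate cells, at -2.68 (-1.75). Slc38a9, a lysosomal amino acid sensor, stood at -2.97 and Mgat4a, a glycosyltransferase, at -2.62. Without their highest cells, HSC 25 and HSC 13, they stood at -2.27 and -1.45.

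HSC 23 was the highest cell for 12 of the 15 lower genes, so its weight bears on most of them. Ddit3, the stress factor CHOP, moved most: 84.3% of its negative-side counts lay in HSC 23, and the ratio went from -3.62 to -1.36 without it, with 11 of 37 and 8 of 23 cells positive at equal depth. Without HSC 23, Scml2, a Polycomb protein, moved from -3.21 to -1.99, Zfp810, a zinc-finger gene, from -3.11 to -1.48, Lactb2, a nuclease, from -2.95 to -1.56, and Faap100 of the Fanconi anaemia core complex from -2.62 to -1.45. Camk2a, a calmodulin-dependent kinase, moved from -3.13 to -2.52, and Gnb5, a G protein subunit, from -3.07 to -1.98. Capsl, a calcium-binding protein, moved from -2.93 to -2.09, and Mccc2, an enzyme of leucine breakdown, from -2.66 to -1.82. Over all alternatives run, the weakest ratio was -0.16 for Capsl, -0.41 for Faap100 and -0.49 for Ddit3 and Lactb2. For Scml2, Camk2a and Zfp810 it was -0.63, -0.71 and -0.72, while Gnb5 and Mccc2 stayed at least 2-fold lower.

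The core blood transcription factors were present on both sides at similar levels, with few exceptions. Runx1 (chromosome 16, 92601466 to 92826149, minus strand), which drives the formation of HSCs, had at least 5 counts in 39 of 39 and 24 of 26 cells. It ran from 17.1 through 122 to 1052 CPM against 1.0 through 102 to 362 CPM, so the medians were close and HSC 22 was the highest cell. The log2 ratio was 0.96 in sums, 0.43 with equal weights and 0.34 without HSC 22, and -0.53 with a cutoff of 10 Gfi1 counts. Spi1, which encodes PU.1, had a median of 249 against 180 CPM and a ratio of -0.11. Gata2, a stem cell factor, had medians of 35.3 and 33 CPM and a ratio of -0.22. Hlf, a marker of HSC identity, stood at 80.1 and 89.1 CPM with a ratio of 0.08, and Mecom at 107 and 94.2 CPM with 0.76 (0.24 with equal weights).

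Myb and Prdm16 were the exceptions in the Gfi1-positive direction. Myb (chromosome 10, 21124935 to 21160984, minus strand), a factor of definitive blood progenitors, ran from 2.96 through 211 to 583 CPM in Gfi1-positive cells and from 1.79 through 68.1 to 351 CPM in Gfi1-negative cells. The ranges overlapped but the median was clearly higher on the positive side. Its ratio was 1.07, 1.04 with equal weights and 0.86 without HSC 22, and 0.31 with a cutoff of 10 Gfi1 counts. Prdm16 (chromosome 4, 154316125 to 154636873, minus strand), a zinc-finger factor needed to maintain HSCs, ran from 0 through 15.9 to 427 CPM against 0 through 1.26 to 63.8 CPM. At equal depth 20 of 37 (54.1%, limits 36.9% to 70.5%) and 5 of 23 cells (21.7%, limits 7.46% to 43.7%) held at least 5 counts. Its 6 highest cells by count were all Gfi1-positive, led by HSC 61 with 397 counts and HSC 15 with 359, and none of the cells that stood apart was among them. The ratio was 2.09 in sums, 2.22 with equal weights and 1.78 without HSC 61, and it stayed between 1.56 and 2.56 under all 16 alternatives run. Of 29 transcription factors compared, 3 (with Hoxa10 at 1.32, and 0.47 with equal weights) were at least 2-fold higher and 1, Zbtb16 at -1.17 (-0.82), lower. The median of 0.14 lay beside 0.15 over all genes.

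**Figure D3:**
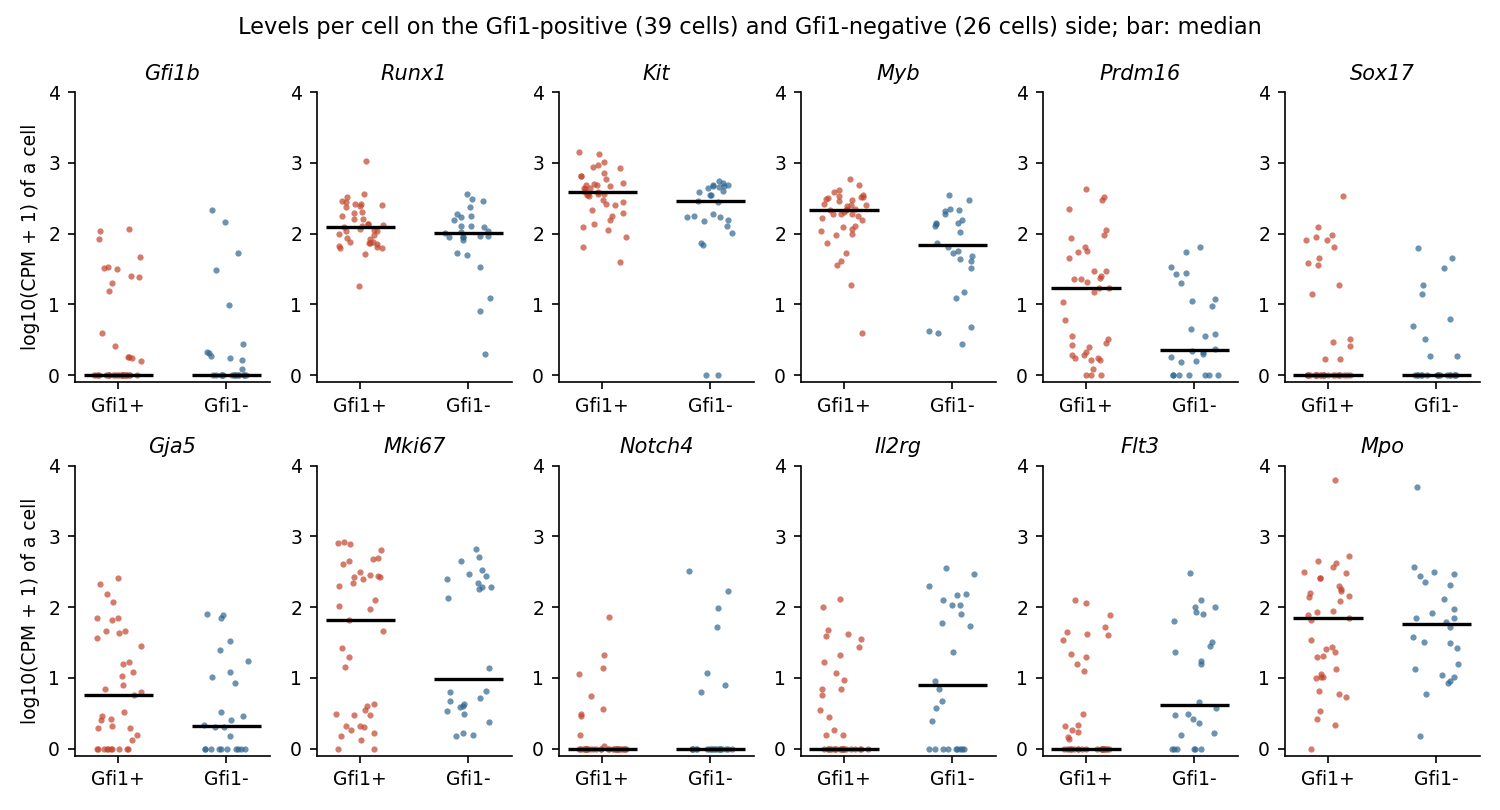
Log10(CPM + 1) of 12 genes in each Gfi1-positive (red, 39 cells) and Gfi1-negative (blue, 26 cells) HSC-labelled cell; bars are medians. Myb and Prdm16 have higher medians on the positive side and Il2rg and Flt3 on the negative side, while the cells of the sides overlap for every gene shown.

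Most of the partners through which GFI1 represses its targets were within 2-fold. Of 19 family members and corepressors, 1 was at least 2-fold higher and 2 lower, with a median of 0.08. Kdm1a, which encodes LSD1, had medians of 33.6 and 37.1 CPM and a ratio of 0.08. Hdac2 stood at 197 and 158 CPM (0.69), and Rcor1, which encodes CoREST, at 57.3 and 70.7 CPM (-0.79, and -0.27 without the deepest cells). Ehmt2, the histone H3K9 methyltransferase G9a, was the higher one: it ran from 0 through 35.5 to 239 CPM against 0 through 14.9 to 99.8 CPM, a ratio of 1.15 and 1.12 with equal weights. It moved below 2-fold, to 0.95, without HSC 22 and HSC 23. Ajuba, a LIM protein that binds GFI1, was lower at -1.94 (-1.13 with equal weights), and Gse1 was lower in sums at -1.14 and not with equal weights, at 0.24.

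Genes that GFI1 is known to repress in other blood cells went both ways in summed counts. Of 14 compared, 2 were at least 2-fold higher and 3 lower, with a median of 0.24, beside 16.5% and 9.6% of all genes. With equal weights the counts were again 2 and 3. At equal depth they were 0 and 3, with a median of 0.27, beside 12.1% and 7% of all genes. The lower ones in sums were Pmaip1, a pro-apoptotic BH3 protein (-2.79), Cdkn1a, the CDK inhibitor p21 (-1.82), and Egr2, a monocyte-promoting factor (-1.75). Each was found in few cells: at equal depth Pmaip1 was positive in 4 of 37 and 4 of 23, Cdkn1a in 4 and 6, and Egr2 in 1 and 1. Without HSC 13, which held 95.4% of its negative-side counts, Egr2 stood at 0.75, and without HSC 51 Cdkn1a stood at -0.80. The higher ones in sums were Id1, an inhibitor of bHLH factors (1.49), and Egr1, an immediate-early factor (1.44, and 0.26 with a cutoff of 10 Gfi1 counts). Id1 ran from 0 through 7.28 to 81.2 CPM against 0 through 0 to 98.3 CPM, and stood at 0.07 with a cutoff of 10 Gfi1 counts. In the promoter windows, 2 of the 12 list members with a window held the motif, namely Gfi1b and Mycn.

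Surface proteins and receptors showed single differences in both directions, 3 of 27 at least 2-fold higher and 6 lower, with a median of 0.00. Kit (chromosome 5, 75574916 to 75656722, plus strand), the stem cell factor receptor, ran from 38.4 through 382 to 1400.2 CPM in Gfi1-positive cells and from 0 through 286 to 554 CPM in Gfi1-negative cells. All 39 Gfi1-positive and 24 of 26 Gfi1-negative cells held at least 5 Kit counts. The ratio was 0.91, 0.69 with equal weights, and 0.26 with a cutoff of 10 Gfi1 counts. Cd34 was nearly level, with ranges of 268 to 1157 and 79.8 to 1747 CPM and a ratio of 0.10. The sort gene Procr, which encodes EPCR, stood at 151 and 103 CPM (0.74), and Ptprc, which encodes CD45, at 144 and 160 CPM (-0.56, and 0.08 without HSC 25).

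Slamf1, which encodes the HSC marker CD150, was higher on the positive side: 8 of 37 against 0 of 23 cells were positive at equal depth (21.6%, limits 9.83% to 38.2%, and 0%, upper limit 14.8%), with a ratio of 1.56 and 1.10 without HSC 54. Itga2b (chromosome 11, 102453297 to 102470122, minus strand), which encodes CD41, an early marker of emerging blood cells, had a ratio of 1.25 but 0.74 with equal weights and medians of 0.13 and 0.39 CPM. Flt3, a receptor of lymphoid-primed and multipotent progenitors, ran from 0 through 0 to 126 CPM against 0 through 3.11 to 306 CPM. At equal depth it was found in 12 of 37 and 12 of 23 cells, and its ratio was -1.33, -0.89 without HSC 53. Alcam, an adhesion molecule, stood at -2.33 (-1.19 without HSC 25) and was positive in 2 of 37 and 4 of 23 cells. Csf2rb, the shared beta chain of the GM-CSF and IL-3 receptors, stood at -1.61 but at 0.57 without HSC 37, which held 81.3% of its negative-side counts.

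Lymphoid genes were more often lower than higher in Gfi1-positive cells. Of 14 compared, 4 were at least 2-fold lower and 1 higher, with a median of -0.58 beside 0.15 over all genes, and -0.70 with equal weights. The lower ones were Il2rg and Flt3, Ltb, which encodes lymphotoxin beta (-1.76), and Tcf7, a factor of early T and innate lymphoid cells (-1.68). Ltb ran from 0 through 0.20 to 114 CPM against 0 through 19.3 to 272 CPM, and 14 of 37 and 13 of 23 cells were positive at equal depth. Without HSC 48 its ratio was -1.31, and it stayed between -2.11 and -1.11 under all 16 alternatives. The summed level of the list per cell ran from 36.9 through 251 to 758 CPM in Gfi1-positive and from 88.8 through 434 to 1243 CPM in Gfi1-negative cells, so the ranges overlapped. The higher gene, Pax5, the B cell commitment factor, was present in HSC 22 alone with 341 counts, against 1 count in HSC 25. Its CPM ratio was 191 (limits 38.4 to 8530). On the CPM + 1 scale its log2 ratio was 2.90, and -0.05 without HSC 22. Without HSC 23, 7 of the lymphoid genes were at least 2-fold lower.

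Granulocyte and monocyte genes split between HSC 37 and HSC 52, the 2 cells that stood apart. Of 18 compared, 5 were at least 2-fold higher and 4 lower, with a median of -0.10. Without HSC 37 and HSC 52 the counts were 2 and 0. With a cutoff of 1 Gfi1 count, which puts HSC 37 and 9 other cells on the positive side, they were 12 and 1, with a median of 1.57. At that cutoff 24.6% of all genes were higher and 9.87% lower, with a median of 0.26. Mpo (chromosome 11, 87793581 to 87804413, plus strand), the myeloperoxidase of granules, ran from 0 through 68.2 to 6164 CPM against 0.49 through 56.2 to 4957 CPM. Its ratio was -0.11, with 6818 counts in HSC 37 and 6492 in HSC 52, and 0.67 without both. At a cutoff of 1 Gfi1 count it was 3.38. S100a8, a neutrophil calprotectin subunit, had 10988 counts in HSC 52 and at most 12 in any other cell, and a ratio of 7.33 that was 0.52 without HSC 52. Fcnb, a ficolin of granulocytes, had 0 counts on the negative side and 99.5% of its counts in HSC 52. It was at least 117.5-fold higher on the positive side against a floor of 3 counts over all Gfi1-negative cells. On the CPM + 1 scale its log2 ratio was 3.59. Clec12a, a myeloid lectin, went from 3.04 to -0.28 without HSC 52.

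On the other side, HSC 37 held 5599 counts of Fcgr3, an IgG receptor, and the ratio of -3.45 was -0.05 without it. The mast cell genes Hdc, which encodes histidine decarboxylase, and Cpa3, a mast cell protease, had 2243 and 1095 counts in HSC 37, with ratios of -4.01 and -4.24. Without that cell Hdc stood at -1.96, since HSC 51 held another 481 counts, and Cpa3 at 0.86. Irf8, a factor of monocytes and dendritic cells, and Ms4a3, a gene of granulocyte and monocyte progenitors, were at least 2-fold higher without both cells. For Irf8, at least 5 counts were found in 7 of 39 Gfi1-positive cells, led by HSC 58 with 135, and in 0 of 26 Gfi1-negative cells (at equal depth 7 of 37 and 0 of 23). Its CPM ratio was 79.7 (limits 29.3 to 420), from 410 counts on the positive and 3 on the negative side. On the CPM + 1 scale its log2 ratio was 3.05. Ms4a3 ran from 0 through 0 to 687 CPM against 0 through 0 to 46.5 CPM, with 9 of 37 and 5 of 23 cells positive at equal depth. Its ratio was 2.08, 1.77 with equal weights and 1.59 without HSC 37 and HSC 52, and HSC 24 held 405 of its remaining counts.

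Megakaryocyte genes were found mainly in Gfi1-positive cells when all cells were kept. Pf4, platelet factor 4, ran from 0 through 0 to 89.7 CPM against 0 through 0 to 9.32 CPM. At equal depth 12 of 37 and 0 of 23 cells were positive (32.4%, limits 18% to 49.8%, and 0%, upper limit 14.8%). HSC 22 held 63.9% of its counts, and the ratio was 3.14 and 1.96 without that cell. Gp1ba, a platelet glycoprotein, stood at 3.88 and 3.03 without HSC 22, with HSC 24 the next highest at 167 CPM. With a cutoff of 10 Gfi1 counts, which moves HSC 22 among others, Pf4 stood at -1.22 and Gp1ba at -0.20. Of 12 megakaryocyte and mast cell genes, 3 were at least 2-fold higher and 3 lower, with a median of 0.02. With a cutoff of 1 Gfi1 count 6 and 1 were, beside 24.6% and 9.87% of all genes.

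Of 8 erythroid genes 4 were at least 2-fold higher and 1 lower, with a median of 0.75 beside 0.15 over all genes. Over all genes the shares were 16.5% and 9.6%. With equal weights 3 were higher and 0 lower, with a median of 0.24, and at equal depth 2 and 0. The summed level of the list per cell had a median of 335 CPM in Gfi1-positive and 364 CPM in Gfi1-negative cells. Hbb-y, an embryonic globin, rested on HSC 54 with 1747 counts: its ratio of 4.63 was 1.46 without it. Hbb-bt, an adult globin, ran from 0 through 6.27 to 1393 CPM against 0 through 1.25 to 139 CPM, with 19 of 37 and 9 of 23 cells positive at equal depth. Its ratio was 1.55 in sums and 2.43 with equal weights, and 0.30 with a cutoff of 10 Gfi1 counts.

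**Figure D4:**
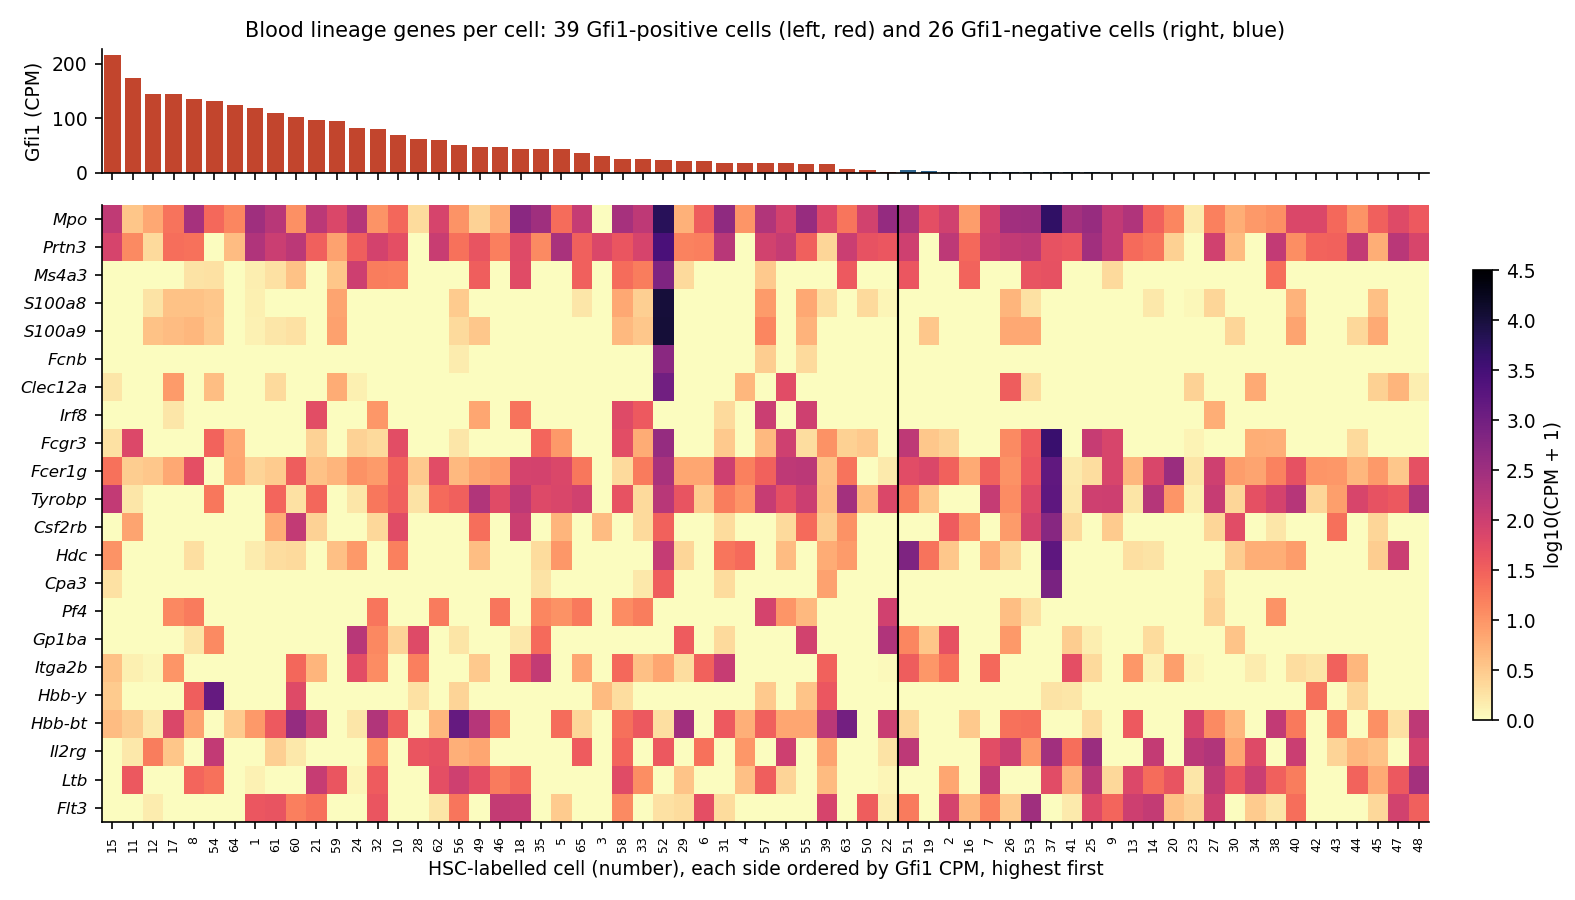
Upper bars: Gfi1 level (CPM) of each HSC-labelled cell, 39 Gfi1-positive cells on the left and 26 Gfi1-negative cells on the right, each side ordered by Gfi1 CPM. Lower grid: log10(CPM + 1) of blood lineage genes; the columns of HSC 52 and HSC 37 carry the highest Mpo levels, and Irf8 is spread over several Gfi1-positive cells.

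Endothelial genes as a list were not lower in the Gfi1-positive cells, and silencing by GFI1 was not tested. Of 28 compared, 6 were at least 2-fold higher and 1 lower, beside 16.5% and 9.6% of all genes, with a median of 0.39 beside 0.15. With equal weights 2 were higher and 1 lower, beside 11.3% and 6.27%, with a median of 0.36 beside 0.09. Sox17 (chromosome 1, 4490931 to 4497354, minus strand), a factor of arterial and haemogenic endothelium, ran from 0 through 0 to 339 CPM against 0 through 0 to 60.5 CPM, and was positive in 11 of 37 and 5 of 23 cells at equal depth. The shares were thus close and the highest cells lay on the positive side, HSC 28 with 424 counts and HSC 12 with 297. The ratio was 2.15, 1.79 with equal weights and 1.57 without HSC 28. Gja5, the arterial connexin 40, ran from 0 through 4.77 to 257 CPM against 0 through 1.07 to 77.6 CPM, with a ratio of 2.18 and 1.49 without HSC 12. Cdh5 (chromosome 8, 104101625 to 104144511, plus strand), which encodes VE-cadherin, had medians of 86.7 and 82.7 CPM and a ratio of 0.50 (0.14 with equal weights). Lyve1 stood at 1.67 but at -0.26 without HSC 24, and Nos3, the endothelial nitric oxide synthase, was lower at -1.81 (-1.11 without HSC 14). The summed level of the list per cell had a median of 2528 against 2079 CPM.

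Genes of S phase were higher in the summed counts of the Gfi1-positive cells, and less so with equal weights or at equal depth. Of 28 S phase genes, 9 were at least 2-fold higher in sums and 0 lower, with a median of 0.74. With equal weights 3 were higher and 1 lower (median 0.29), beside 11.3% and 6.27% of all genes. At equal depth 3 were higher and 0 lower (median 0.37), beside 12.1% and 7% of all genes. The medians over all genes were 0.15, 0.09 and 0.10. Rrm2, a ribonucleotide reductase subunit, ran from 0 through 32.2 to 609 CPM against 0 through 2.35 to 355 CPM, with 20 of 37 and 7 of 23 cells positive at equal depth. Its ratio was 1.82, 1.34 without HSC 24, and at least 1.03 under all 16 alternatives. Ccne1, cyclin E1, stood at 2.32 (1.03 with equal weights) and E2f1, a factor of S phase entry, at 1.97 (1.24, and 0.71 with a cutoff of 10 Gfi1 counts). The summed S phase level per cell had medians of 2962 and 3072 CPM, which is slightly lower on the positive side.

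For mitosis genes the sums differed little and the median cell more. Of 28 mitosis genes, 4 passed 2-fold upward and 0 downward in sums, with a median of 0.16, and 2 and 0 with equal weights, with a median of 0.30. At a cutoff of 1 Gfi1 count they were 11 and 0 (median 0.70), beside 24.6% and 9.87% of all genes (median 0.26). With a cutoff of 5 Gfi1 CPM they were 3 and 2 (median -0.10), beside 16.9% and 10.1% of all genes (median 0.17). The summed mitosis level per cell had a median of 1577 CPM in Gfi1-positive and 605 CPM in Gfi1-negative cells, over ranges of 110 to 10900 and 172 to 12822 CPM. Mki67 (chromosome 7, 135689784 to 135716361, minus strand), a marker of cycling cells, had a median of 64.7 against 9.27 CPM. At equal depth 24 of 37 (64.9%, limits 47.5% to 79.8%) and 10 of 23 cells (43.5%, limits 23.2% to 65.5%) held at least 5 Mki67 counts. Both sides thus held cells with and without the marker. The ratio was 0.19 in sums, 1.18 without HSC 23 and -0.13 without HSC 22. Ndc80, a kinetochore protein, stood at 1.74 and Aurkb, a mitotic kinase, at 1.41. Ndc80 stood at 0.06 and Aurkb at 0.61 with a cutoff of 10 Gfi1 counts.

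Among inhibitors of the cycle, the CDK inhibitor Cdkn1c (chromosome 7, 143458339 to 143461050, minus strand), which is imprinted and acts in quiescent HSCs, had medians of 251 and 219 CPM and a ratio of 0.73 (0.40 with equal weights). Cdkn1b, p27, stood at 1.27 and 0.69 without HSC 12, and Ccnd1, cyclin D1, at -1.06 and -0.53 without HSC 48. Of the 7 inhibitors and D-type cyclins compared, 1 was at least 2-fold higher and 2, Cdkn1a and Ccnd1, lower.

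In the Notch pathway the genes past 2-fold were all lower on the positive side. Of 12 compared, 0 were at least 2-fold higher and 3 lower, with a median of -0.42, and the counts were the same with equal weights. Besides Notch4 these were the ligands Dll1 and Jag1. Dll1 had 3 counts in all on the positive side and 185 on the negative side, 121 in HSC 14 and 64 in HSC 13. Its CPM ratio of Gfi1-negative over Gfi1-positive was 102 (limits 32.9 to 478). The log2 ratio on the CPM + 1 scale was -2.68. Jag1 stood at -2.03 (-1.23 without HSC 34) and was positive in 1 of 37 and 3 of 23 cells at equal depth. Each of the 3 thus rests on a handful of cells. Hes1, a common Notch target, stood at 0.26.

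Of 17 BMP and TGF-beta response genes compared, 3 were at least 2-fold higher and 1 lower, with a median of 0.17. The higher ones were Bmpr1a, a BMP receptor (2.91, with 5 of 37 and 0 of 23 cells positive at equal depth), and the BMP targets Id3 (1.51) and Id1. Id3 ran from 0 through 1.68 to 371 CPM against 0 through 0.06 to 182 CPM. Tgfb1 was lower at -1.88, with 87.5% of its counts in HSC 23, and stood at 0.47 without that cell and -0.18 with equal weights.

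Of 21 interferon and inflammatory genes, 1 was at least 2-fold higher and 3 lower. Il1r1, the interleukin-1 receptor, stood at -4.58 and at -2.34 without HSC 23; it was positive in 0 of 37 and 3 of 23 cells. Of 17 dissociation stress genes 2 were higher and 2 lower, with a median of -0.54 in sums and -0.23 with equal weights, led by Zfp36, an mRNA decay factor, at -1.71 (-0.70 without HSC 48). Of 17 imprinted genes 2 were higher and 3 lower, with Slc38a4, an amino acid transporter, at 3.49 and Peg3, a zinc-finger gene, at -1.29. At equal depth, however, Peg3 was positive in the larger share of Gfi1-positive cells, 16 of 37 against 6 of 23. It stayed at least 2-fold lower in 10 of 16 alternatives, with a weakest ratio of -0.32. Glycolysis genes, 18 compared, had 1 higher (Pfkm, 1.47, and 0.94 with equal weights) and 1 lower (Aldoc, -1.45, and 0.16 without HSC 34). None of 79 ribosomal protein genes and none of 13 mitochondrially encoded genes differed 2-fold in either direction, in sums or with equal weights.

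**Figure D5:**
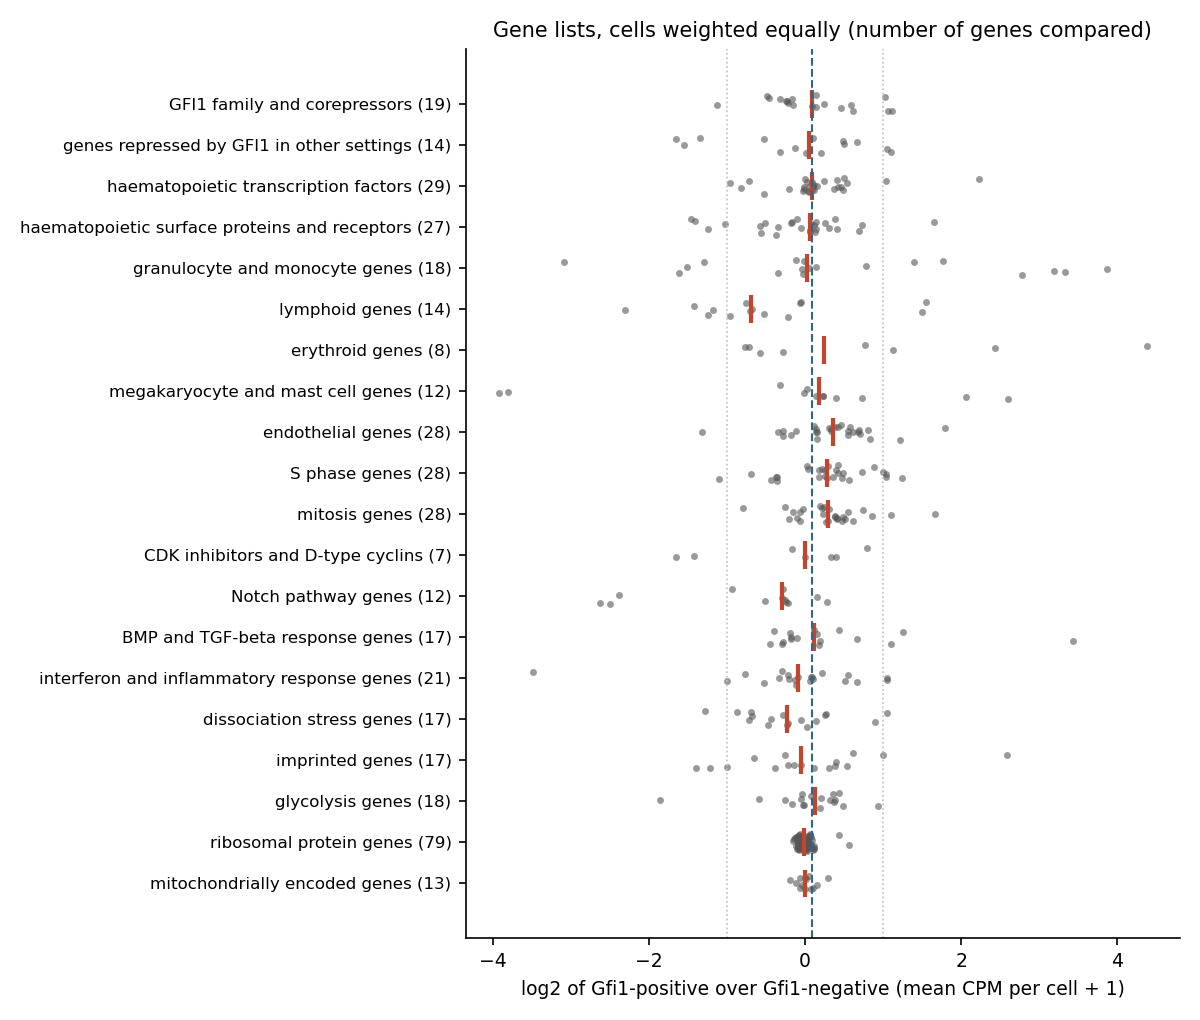
Log2 ratio of Gfi1-positive over Gfi1-negative (mean CPM per cell + 1) of each compared gene (grey points) by list, with the list's median (red bar), 2-fold in either direction (dotted grey) and the median of all genes (dashed blue, 0.09). The lymphoid median of -0.70 lies farthest from the blue line, and no ribosomal protein gene passes 2-fold.

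Markers of neural crest, macrophages and mesenchyme were scarce on both sides, and those of endothelium and 1 epithelial keratin were not. Of 8 neural crest and sympathoadrenal markers in the files, 0 reached 100 counts and 5 had 0 counts on both sides, and of 12 macrophage markers 3 reached it and 2 had 0. The summed macrophage level per cell ran from 0 to 329 CPM in Gfi1-positive and from 0 to 357 CPM in Gfi1-negative cells, with medians of 12.2 CPM on both sides. Of 8 mesenchyme markers 2 were compared, Acta2 at 1.24 (0.79 with equal weights) and Prrx1 at -0.89 (-1.47). Of 4 epithelium markers 1 was compared, Krt18, a keratin of simple epithelia, which stood at a median of 100.6 against 30.1 CPM, with 30 of 37 and 16 of 23 cells positive at equal depth and a ratio of 0.88 (0.64). The summed epithelium level had medians of 100.6 and 37.9 CPM, while Epcam, which defines epithelia, was found in HSC 18 alone with 11.8 estimated counts. Of 10 endothelium markers 3 were at least 2-fold higher and 0 lower, and their summed level had medians of 682 and 529 CPM. The neutrophil markers S100a8 and S100a9 reached 21061 CPM together in HSC 52 and at most 10.3 CPM in a Gfi1-negative cell. The part of these cell types in the differences above was not tested. For the sex-linked genes, at least 5 summed counts of the Y-linked genes were found in 34 of 39 and 23 of 26 cells, or 87.2% and 88.5%.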

How the data were processed

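Full-length mRNA libraries of 65 HSC-labelled single cells, out of 335 cells in 4 sorted groups, were compared. The authors' deposited estimated counts per gene were made with kallisto 0.43.1 on GRCm38, per the submitters' processing notes; annotation, transcript summing and filters are not given in the sources used here. The authors' deposited log2 table equals log2(estimated count/size factor + 1) and served for 1 alternative. Of 14109 entries, 661 without a gene symbol (3.45% of counts) were left out.

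Cells were split on the rounded Gfi1 count (at least 5), and Gfi1 was left out of totals. Counts were summed per side and expressed as CPM with exact Poisson limits, and ratios used CPM + 1 over genes with at least 100 counts. Beside this, mean CPM over cells was used, or cells were thinned to 430000 counts (5 shallower cells left out, fixed seed). Shares carry exact Clopper-Pearson limits. Smart-seq2 reads have no molecular identifiers, so limits on levels and ratios cover the counting error of reads only. They leave out amplification and the spread between cells, and are thus too narrow. Limits on shares take the cells of the pool as independent draws and cover no spread between embryos. The largest correlation between HSC cells was 0.71, so no cell was a copy. Scripts were tested on simulated data (Python 3.11.15, pandas 2.3.3, numpy 2.4.6, scipy 1.17.1). Coordinates come from GENCODE M21 on GRCm38, promoters from RefSeq on GRCm38.p6.

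The split, 18 gene lists, 8 marker sets and tests were chosen with earlier results of these data known. The naming rule takes per direction the 15 largest ratios among genes present in 25% of the cells of the higher side. It asks for at least 2-fold in sums, with equal weights, at equal depth and without the highest cell. Sort genes, mitochondrial genes, pseudogenes and unnamed loci were left out. Of the 30 genes so named, 26 kept their direction and 14 stayed at least 2-fold in all alternatives in which they were compared. A list of 14 blood genes and up to 4 members of each list are named too. Cells HSC 22, HSC 23, HSC 37 and HSC 52 were left out in alternatives chosen after seeing the data.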

Additional observations from a re-analysis of the deposited data

How the results depend on the processing

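Of the genes compared, 16.5% were at least 2-fold higher in Gfi1-positive cells and 9.6% lower. These shares were 12.1% and 6.77% with a filter of 1000 counts (948 and 529 genes), 8.87% and 5.63% with a pseudocount of 5 CPM (1000 and 635), and 7.13% and 2.29% on the deposited log2 table (804 and 258), where higher genes made up 75.7% of those called against 63.2%. With cells weighted equally 6.27% were lower. A cutoff of 1 Gfi1 count gave 2767 higher genes (24.6%), 1529 of them shared with the main split, and a median log2 ratio of 0.26. A cutoff of 10 counts gave 1799, with 1229 shared. In the other alternatives both counts stayed within 1.5 times. With a cutoff of 1 count, which moves 10 cells, among them HSC 25, HSC 37 and HSC 51, log2 ratios turned for Cdkn1a (0.014), Ly6e (0.45), Alcam (1.06), Csf2rb (2.77), Fcgr3 (4.54), Fcer1g (1.20), Tyrobp (0.36), Plac8 (3.09), Cpa3 (4.23) and Hdc (2.66). With cutoffs of 10 counts, of 5 CPM and of 5 counts after thinning, they turned for Glb1l (-1.80, -1.91 and -1.89), Tceal1 (-1.21, -1.14 and -1.24), Vrk2 (-0.43, -0.62 and -0.53), Pax5 (-3.26, -3.37 and -3.34), Pf4 (-1.22, -1.07 and -0.97) and Gp1ba (-0.20, -0.41 and -0.29). Polq stood at -0.12 with 5 CPM and Ndc80 at -0.041 after thinning. Without HSC 37 and HSC 52, Csf2rb stood at 0.50 and Clec12a at -0.32. The cause of these moves was not tested. Depth limits every share near 0: 0 of 23 thinned cells allows up to 14.8%. No paired analysis was possible because the cells carry no replicate number and make up 1 pool.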

Other observations

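Ranking genes by the share of cells in which they were present, a rule chosen after seeing the data, gives another set than ranking by level, in which each cell counts once. At equal depth 354 of 11270 genes were present with at least 5 counts in a share of Gfi1-positive cells at least 25 percentage points above that of Gfi1-negative cells (3.14%), and 56 the other way (0.497%). The median number of genes with at least 5 counts per cell at this depth was itself higher in Gfi1-positive cells, at 5427 against 4902. Its part in these shares was not tested. With presence taken as at least 1 count the numbers were 321 and 68, and without thinning 320 and 41.

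Dpy19l3, a C-mannosyltransferase of the endoplasmic reticulum, had the largest difference, at 24 of 37 (64.9%) against 3 of 23 cells (13%). It ran from 0 through 24.9 to 331 CPM in Gfi1-positive and from 0 through 2.61 to 71.5 CPM in Gfi1-negative cells, and its log2 ratio was 2.99, or 2.68 without HSC 24. Bnip1, a SNARE protein of the endoplasmic reticulum, was present in 75.7% against 30.4% of cells, Atrn, attractin, in 62.2% against 17.4%, Aldh9a1, an aldehyde dehydrogenase, in 54.1% against 13%, and Bad, a pro-apoptotic BCL2 family protein, in 62.2% against 21.7%. Jak3, the kinase that signals from the common gamma chain encoded by Il2rg, was present in 54.1% against 13% of cells, while Il2rg itself was present in 24.3% against 56.5%.

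In the other direction Myo1f, a class I myosin of leukocytes, was present in 12 of 37 (32.4%) against 18 of 23 cells (78.3%), with a median of 0.91 against 32.8 CPM, although its summed log2 ratio was only -0.48. Inpp5a, an inositol phosphatase, was present in 13.5% against 52.2%, Atxn2, an RNA-binding protein, in 48.6% against 87%, and Prdm2, a zinc-finger methyltransferase gene, in 27% against 60.9%. With 37 and 23 cells of 1 pool these shares describe these cells only.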
